A study of Rattus norvegicus with 18 samples.

Results

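Of the enzymes described here, 17 carry glucose to pyruvate and lactate (glycolysis). A further 9 pass pyruvate into the citrate cycle or control that step (pyruvate entry). The other 16, grouped as citrate cycle, are enzymes of the cycle itself and the cytosolic forms Aco1, Idh1 and Mdh1. The 42 genes were taken by name, and each was represented by the probe whose annotated symbol matched it. Where several probes matched, the one with the highest mean signal was used. Of the 42, 37 had a probe among the 21563 gene symbols on the array. No probe carried the symbols Hk1, Pgam1, Pdha1, Pdhx or Ogdh, and these were not analysed here. The probe of Pdk4 was detected on 0 of 18 arrays (mean signal 73.4), which left 36 enzymes tested, 15 of glycolysis, 6 of pyruvate entry and 15 of the citrate cycle.

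Glycolysis splits glucose into pyruvate in the cytosol. Pyruvate is then reduced to lactate by lactate dehydrogenase, or is oxidised by the pyruvate dehydrogenase complex in the mitochondrion and enters the citrate cycle as acetyl-CoA. Several of the steps have isoforms that differ between cells of the brain. Aldoc (aldolase C) is abundant in astrocytes, while Eno2 (gamma enolase) is the neuronal enolase and a long-used neuronal marker.

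RNA was measured on 18 Illumina rat arrays, 3 for each of 6 groups, in primary cortical neurons from rat embryos. All cultures were exposed for 6 hours, on day 1 after plating, to lentivirus made in HEK-293T cells (a human embryonic kidney line) from the pLKO.1 vector, and were then kept in Neural Basal Medium. The control groups (C) received a scrambled shRNA and the CHD5-depleted groups (KD) shRNA against CHD5, a chromatin remodeling ATPase of brain. RNA was harvested on day 5, 9 or 12. The labels give replicates a, b and c but not whether these were separate cultures, so p-values measure only the spread between these samples. The labels do not name which CHD5 shRNA was used on the arrays, and 0 probes were annotated to Chd5, so its depletion could not be read here.

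Levels are log2 signals brought to the same mean and spread on every array, and a difference is the KD mean minus the control mean on that log2 scale. A gene is called changed where limma's Benjamini-Hochberg adjusted p, over 11079 probes, was under 0.05. Mean signals ran from 400.2 to 789.3 and detected probes from 8360 to 9931 on 17 arrays. The day 9 control array of replicate b stood apart, with a mean signal of 134.8, 7047 detected probes, a log2 SD of 1.11 against 1.72 to 2.02, and a highest correlation of 0.955 with any other array. It is called the low-signal array, and the counts of the 36 enzymes called are given with and without it. Of the neuronal markers, 8 of 12 had a probe, and all of these but Syn1 were detected on all 18 arrays (Rbfox3, Map2, Mapt and Dcx had none). Of the astrocyte markers, 12 of 15 were tested, and 7 of these, among them Gfap and Slc1a3, were detected on all 18 arrays too. The microglial markers Itgam, C1qa and C1qb were detected on 0 arrays.

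With all arrays, 0 to 6 of the 36 enzymes were called after CHD5 depletion, depending on the day, and the counts moved with the setting. At day 5, 0 of 36 were called by limma, where 0.171% of all probes were, and 2 (Pfkp and Idh1) had an unadjusted p under 0.05, where 5.66% of all probes did. With arrays weighted by their quality 2 were called at day 5, Pfkp (0.63, adjusted p 0.00149) and Idh2 (-0.37, adjusted p 0.0275). At day 9, 6 of 36 were called, 3 higher and 3 lower, where 5.89% of all probes were (3.65% higher and 2.25% lower). Aldoc, Ldhb (the heart-type subunit of lactate dehydrogenase) and Pdk2 (a kinase that inhibits pyruvate dehydrogenase) were lower, and Pkm2 (pyruvate kinase), Cs (citrate synthase) and Idh1 (the cytosolic, NADP-linked isocitrate dehydrogenase) were higher. At day 12, 3 of 36 were called, where 5.47% of all probes were (2.23% higher and 3.24% lower), with Aldoc and Pdk2 lower and Idh1 higher. The median difference over the 36 enzymes was -0.04, 0.01 and 0.03 at days 5, 9 and 12, beside 0.01, -0.02 and 0.01 over all probes. The differences of 16, 18 and 21 of the 36 enzymes lay above 0, and 16, 23 and 21 did without the low-signal array. At an unadjusted p under 0.05 the counts were 9 at day 9 and 10 at day 12, where 20.2% and 16% of all probes had one.

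When the low-signal array was left out, 0, 10 and 11 enzymes were called at days 5, 9 and 12, where 1.46%, 10.6% and 13% of all probes were. All 6 enzymes called at day 9 and all 3 called at day 12 with every array were among them. The further enzymes called were Pfkl, Pdk1, Pcx and Idh2 at day 9 and Pfkm, Pfkp, Pkm2, Ldhb, Pcx, Cs, Idh2 and Sdhd at day 12. The day 9 count also moved with other single arrays, to 10 without control replicate a, 3 without KD replicate a and 0 without KD replicate c, when the adjusted p of the 6 enzymes ran from 0.0507 to 0.141. With arrays centred on their medians and not brought to the same spread, 1 enzyme was called at day 9 (Pkm2) and 1 at day 12 (Aldoc).

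**Figure D1:**
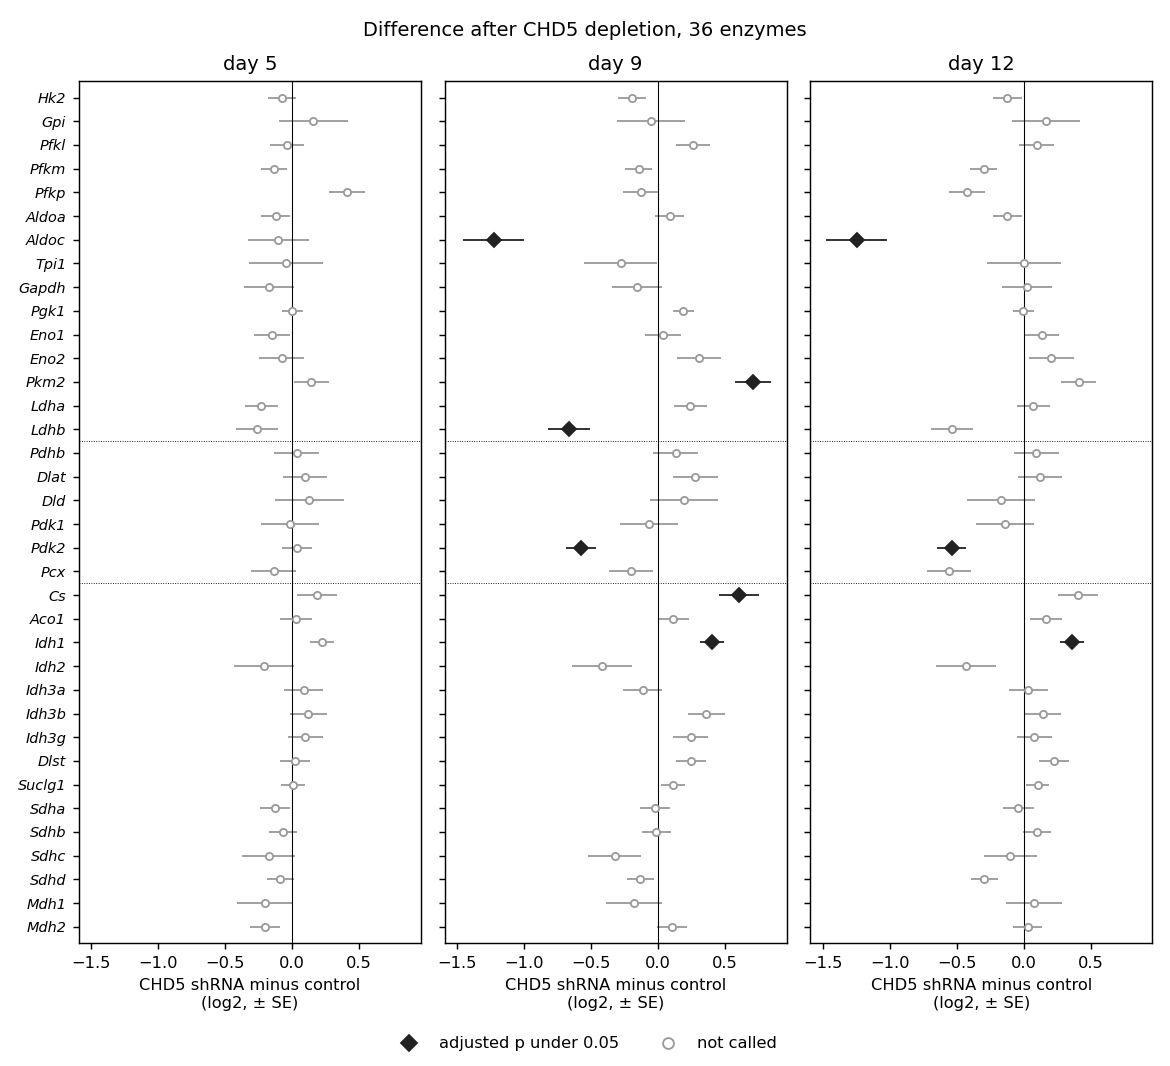
Difference between CHD5 shRNA and control (log2, x axis, bars ± SE of the limma fit, 3 against 3 arrays) for each of the 36 enzymes at days 5, 9 and 12, in the order glycolysis, pyruvate entry and citrate cycle. Filled diamonds are the 0, 6 and 3 enzymes called, and Aldoc lies farthest from 0 at days 9 and 12. Hk2 was not well above background on the arrays of day 12 and of the depleted group at day 9.

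The promoters of the 6 enzymes called at day 9 are shown because these are the members that passed the test on that day, Aldoc, Ldhb and Pdk2 lower and Pkm2, Cs and Idh1 higher. Each window runs from 250 bases before the annotated transcription start to 50 bases after it, 5′ to 3′, and is RefSeq sequence of the GRCr8 build. It was matched through the gene number the array annotation gives, as was done for 33 of the 36 enzymes. Capitals mark the letters ACGTG or GCGTG (the core letters bound by hypoxia-inducible factor), CACGTG (an E-box, which contains ACGTG) and GGGCGG (a GC box), read on both strands.
Aldoc (chr10:63715294-63715593, plus strand): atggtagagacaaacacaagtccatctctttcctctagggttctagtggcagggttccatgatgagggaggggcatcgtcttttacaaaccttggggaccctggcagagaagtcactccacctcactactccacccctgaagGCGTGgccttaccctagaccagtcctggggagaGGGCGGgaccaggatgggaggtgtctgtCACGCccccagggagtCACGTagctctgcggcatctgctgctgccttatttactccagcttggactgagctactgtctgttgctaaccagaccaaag
Ldhb (chr4:177177359-177177658, minus strand): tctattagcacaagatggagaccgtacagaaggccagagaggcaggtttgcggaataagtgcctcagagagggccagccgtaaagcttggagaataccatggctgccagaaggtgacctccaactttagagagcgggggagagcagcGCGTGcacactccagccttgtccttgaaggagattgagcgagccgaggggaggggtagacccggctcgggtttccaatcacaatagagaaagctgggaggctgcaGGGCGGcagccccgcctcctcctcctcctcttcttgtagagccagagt
Pdk2 (chr10:80483863-80484162, minus strand): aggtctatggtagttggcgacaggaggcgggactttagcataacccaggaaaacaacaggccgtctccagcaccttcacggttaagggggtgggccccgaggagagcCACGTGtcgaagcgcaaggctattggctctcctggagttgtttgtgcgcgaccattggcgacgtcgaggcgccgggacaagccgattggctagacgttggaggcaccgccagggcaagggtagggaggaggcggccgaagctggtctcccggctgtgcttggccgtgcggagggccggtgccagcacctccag
Pkm2 (chr8:68953385-68953684, plus strand): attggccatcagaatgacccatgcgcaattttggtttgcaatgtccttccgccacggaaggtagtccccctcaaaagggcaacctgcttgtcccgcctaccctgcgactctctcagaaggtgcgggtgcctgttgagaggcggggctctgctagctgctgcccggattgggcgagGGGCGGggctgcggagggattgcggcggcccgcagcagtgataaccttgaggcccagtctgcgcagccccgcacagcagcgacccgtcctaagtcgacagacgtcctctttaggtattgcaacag
Cs (chr7:1348139-1348438, plus strand): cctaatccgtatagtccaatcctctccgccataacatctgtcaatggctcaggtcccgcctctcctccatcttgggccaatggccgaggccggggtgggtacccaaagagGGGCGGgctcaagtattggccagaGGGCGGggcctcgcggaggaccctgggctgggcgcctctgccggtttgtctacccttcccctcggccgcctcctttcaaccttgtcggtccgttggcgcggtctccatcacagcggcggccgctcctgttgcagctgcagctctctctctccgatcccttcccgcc
Idh1 (chr9:74049425-74049724, minus strand): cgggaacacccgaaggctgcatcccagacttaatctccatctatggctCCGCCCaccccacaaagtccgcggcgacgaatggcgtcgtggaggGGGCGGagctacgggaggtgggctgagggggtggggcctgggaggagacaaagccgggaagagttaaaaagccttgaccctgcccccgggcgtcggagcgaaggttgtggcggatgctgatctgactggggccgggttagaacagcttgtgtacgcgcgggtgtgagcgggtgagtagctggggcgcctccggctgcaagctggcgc
The windows of Aldoc, Ldhb and Pdk2 held ACGTG or GCGTG, and those of Pkm2, Cs and Idh1 held neither. One or the other stood in 20 of the 33 windows (60.6%), in 17 of the 27 of enzymes not called at day 9, and in 42.9% of all promoters. GGGCGG stood in the windows of Aldoc, Ldhb, Pkm2, Cs and Idh1. Over the 33 enzymes, ACGTG was found in 33.3% of windows, GCGTG in 48.5%, CACGTG in 9.09% and GGGCGG in 57.6%. Over all 27457 promoters the shares were 19.7%, 31.1%, 6.65% and 34.9%. A paired site of nuclear factor I was searched as well and was in 0 of the 33 windows and in 1.26% of all promoters. These are matches of letters and not sites measured to be bound.

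Aldoc, which splits fructose 1,6-bisphosphate, had the largest change. At day 5 its levels were 9.47, 9.46 and 9.77 in the controls and 9.72, 9.43 and 9.23 after depletion, and the groups overlapped. At day 9 they were 12.11, 13.37 and 12.31 against 11.60, 11.41 and 11.09, the value of 13.37 being that of the low-signal array. At day 12 they were 13.34, 13.26 and 13.29 against 12.07, 12.08 and 11.98. Every depleted array lay below every control array at days 9 and 12. The difference was -1.23 at day 9 (SE 0.23, limma adjusted p 0.00496) and -1.25 at day 12 (SE 0.23, adjusted p 0.00280), or 0.427 and 0.42 times the control. Leaving out the low-signal array gave a day 9 difference of -0.86 (adjusted p 0.000651) and a day 12 difference of -1.28 (adjusted p 1.96e-06). The day 9 value was not called without KD replicate c (-1.09, adjusted p 0.0507) or with median centring (-0.72, adjusted p 0.191). With only the day 9 arrays it was not called either (-1.15, adjusted p 0.307). The day 12 value was called under all 17 alternatives tried. Aldoa, the broadly expressed aldolase, differed by 0.09 at day 9 and -0.13 at day 12 and was not called, and a second Aldoa probe differed by 0.16 and -0.01.

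In bulk RNA, fewer astrocytes and less Aldoc RNA per astrocyte cannot be told apart. Markers of astrocytes moved with Aldoc. At day 9 and at day 12, 9 of the 12 tested were called lower and 0 higher, where 2.25% and 3.24% of all probes were called lower. The median difference of these 12 markers was -0.82 and -0.78. Their summed level, in linear normalized units, was 8515 to 8985 in the controls and 6586 to 7048 after depletion at day 5, 26140, 32040 and 111800 against 16190 to 20960 at day 9, and 42660 to 45070 and 23590 to 25330 at day 12. The value of 111800 is that of the low-signal array. Without that array 2, 9 and 10 of the 12 markers were called lower at days 5, 9 and 12. The marker sum was lower on every depleted array at day 5 too, when Aldoc overlapped. Gjb6 was detected on 0 arrays, and Aldh1l1 and Glul had no probe. Among other cell types, 2 of 3 fibroblast markers were called lower at day 9 and at day 12. On those days 0 of 2 microglial, 0 of 2 endothelial or mural and 0 of 3 proliferation markers were called by limma. None of these had an unadjusted p under 0.05 then either. The microglial probes Aif1 and Cd68 were detected on only 1 and 3 arrays, so their count does not show whether microglia changed. Of the endothelial or mural probes, Flt1 was detected on 1 array and Cldn5 on 16, so that count rests on Cldn5. Leaving out the low-signal array, 2 of the 3 proliferation markers were called lower at day 5 and 1 at day 9. Over all probes 1.46% and 10.6% were called. With all arrays, 0 of the 3 were called at day 5 (median difference -0.38). At an unadjusted p under 0.05 there were 2 proliferation and 2 fibroblast markers at day 5, where 5.66% of all probes had one. Of 8 neuronal markers, Tubb3 was called higher at days 9 and 12 and 0 were called lower by limma, and without the low-signal array 1 and 2 were called higher. The part of these cells in the enzyme differences was not tested.

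Ldhb favours the conversion of lactate to pyruvate. Its levels were 12.07, 12.81 and 12.26 in the day 9 controls and 11.72, 11.91 and 11.51 after depletion, and 12.39, 12.27 and 12.33 against 11.83, 11.82 and 11.72 at day 12. The groups were separate on both days, and overlapped at day 5. The difference was -0.67 at day 9 (SE 0.16, limma adjusted p 0.0190) and -0.54 at day 12 (adjusted p 0.0551), which missed the limit. It was called on both days without the low-signal array, with -0.46 (adjusted p 0.0257) and -0.55 (adjusted p 0.00254). The day 9 call was lost without KD replicate a (-0.67, adjusted p 0.0700) or KD replicate c (-0.57, adjusted p 0.141), and with median centring the difference was -0.24 (adjusted p 0.771). It was lost too without the detection filter (adjusted p 0.0801) and with only the day 9 arrays (adjusted p 0.338). Ldha, the subunit that favours lactate formation, was not called at any day (-0.23, 0.24 and 0.07).

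Pkm2 makes pyruvate from phosphoenolpyruvate in the last step of glycolysis. The probe was not shown to tell the splice forms of this gene apart. Levels at day 9 were 8.36, 8.04 and 8.47 in the controls and 9.01, 8.84 and 9.15 after depletion. At day 12 they were 8.46, 8.51 and 8.74 against 8.92, 9.01 and 9.02, again without overlap. The difference was 0.71 at day 9 (SE 0.13, limma adjusted p 0.00539) and 0.41 at day 12 (adjusted p 0.0937), which was not called. Without the low-signal array the values were 0.60 (adjusted p 0.00465) and 0.42 (adjusted p 0.0178). Without KD replicate c the day 9 value was not called (0.64, adjusted p 0.0541), nor was it with only the day 9 arrays (0.66, adjusted p 0.272).

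The phosphofructokinases commit sugar to glycolysis, and none was called after depletion with all arrays. Pfkp, the platelet-type form that is common in brain, stood at 9.89, 9.38 and 9.76 in the day 5 controls and at 10.27, 9.91 and 10.08 after depletion. At day 12 it stood at 10.67, 10.59 and 10.90 in the controls and at 10.37, 10.19 and 10.31 after depletion. It was thus higher on every depleted array at day 5 and lower on each at day 12. The differences were 0.41 (SE 0.13, limma adjusted p 0.409) and -0.43 (adjusted p 0.0777). Without the low-signal array the day 12 difference was called (-0.44, adjusted p 0.0254). Pfkm, the muscle form, differed by -0.30 at day 12 (adjusted p 0.0985, and 0.0315 without the low-signal array), and Pfkl, the liver form, by 0.26 at day 9 (adjusted p 0.262, and 0.42 with adjusted p 0.0250 without that array).

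Of the other enzymes of glycolysis none was called after depletion at any day with all arrays. Hk2 (hexokinase 2), the only hexokinase tested, differed by -0.08 at day 5. Its probe was detected on all day 5 arrays, on 1 of 3 control arrays at day 9 and on no array of the other groups, so its levels there are not well above background and give no difference at days 9 and 12. Gapdh, often used to normalise other genes, differed by -0.17, -0.16 and 0.02, and 2 further Gapdh probes by between -0.18 and 0.09. Without the low-signal array the day 9 difference of the main Gapdh probe was 0.13 (limma adjusted p 0.560, not called). Without day 9 control replicate a it was -0.45 and was called (adjusted p 0.0359). Eno2 differed by -0.08, 0.30 and 0.20 (limma adjusted p 0.999, 0.316 and 0.676), and Eno1, the enolase of most tissues, by -0.15, 0.04 and 0.13. At day 9 Eno2 was 10.66, 10.01 and 10.68 in the controls and 10.74, 10.71 and 10.82 after depletion, and the groups did not overlap. The value of 10.01 is that of the low-signal array, and without it the day 9 difference was 0.09 (limma adjusted p 0.712).

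At the entry of pyruvate, Pdk2 was lower and the subunits of the complex it inhibits were not called. The levels of Pdk2 were 8.79, 8.51 and 8.86 in the day 9 controls and 8.31, 8.10 and 8.02 after depletion. At day 12 they were 9.19, 9.11 and 9.04 against 8.66, 8.60 and 8.46. The groups were separate on both days and overlapped at day 5 (difference 0.04). The difference was -0.58 at day 9 (SE 0.11, limma adjusted p 0.00586) and -0.54 at day 12 (SE 0.11, adjusted p 0.00645), and without the low-signal array -0.70 (adjusted p 0.000190) and -0.55 (adjusted p 0.000300). Without KD replicate c the day 9 value was -0.52 (adjusted p 0.0571). The day 9 call was also lost with median centring (adjusted p 0.147) and with only the day 9 arrays (adjusted p 0.307). With median centring the day 12 call was lost as well (adjusted p 0.0809). Of the pyruvate dehydrogenase subunits, Pdhb differed by 0.13 and 0.09, Dlat by 0.28 and 0.12 and Dld by 0.19 and -0.17 at days 9 and 12. Without the low-signal array the day 9 differences of Pdhb, Dlat and Dld were -0.17, 0.02 and -0.24, and none was called. Pdk1, a further kinase of the complex, differed by -0.07 at day 9 with a value of 8.67 on the low-signal array against 9.89 and 9.78 in the other controls. Without that array Pdk1 was called lower at day 9 (-0.47, adjusted p 0.0146).

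Pcx (pyruvate carboxylase) makes oxaloacetate from pyruvate and is known in brain mainly from astrocytes. It was outside the rule for named enzymes and was picked after its values were seen. At day 12 its levels were 8.89, 8.63 and 8.58 in the controls and 8.25, 8.17 and 7.995 after depletion, a difference of -0.56 (SE 0.17, limma adjusted p 0.0563). At day 9 the low-signal array stood at 7.92, below the other controls (8.83 and 8.63) and the depleted arrays (8.27, 8.29 and 8.21). Without it Pcx was called lower at day 9 (-0.48, adjusted p 0.00817) and at day 12 (-0.57, adjusted p 0.000470).

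In the citrate cycle, Cs joins acetyl-CoA to oxaloacetate. Its levels were 9.30, 8.70 and 8.92 in the day 9 controls and 9.60, 9.55 and 9.58 after depletion, and 9.33, 9.14 and 9.32 against 9.68, 9.72 and 9.60 at day 12. The difference was 0.60 at day 9 (SE 0.15, limma adjusted p 0.0238) and 0.40 at day 12 (adjusted p 0.158). Without the low-signal array both were called (0.48, adjusted p 0.0392, and 0.41, adjusted p 0.0401). The day 9 call was lost without control replicate c, KD replicate a or KD replicate c (adjusted p 0.0623, 0.0860 and 0.114). It was also lost with median centring, without the detection filter and with only the day 9 arrays (adjusted p 0.147, 0.0583 and 0.322).

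Idh1 was the enzyme called higher on both days. Its levels were 12.09, 12.13 and 11.98 in the day 5 controls and 12.34, 12.34 and 12.19 after depletion. At day 9 they were 11.70, 11.76 and 11.77 against 12.16, 12.13 and 12.14, and at day 12 11.95, 11.65 and 11.87 against 12.14, 12.18 and 12.23. Every depleted array lay above every control array on all 3 days. The difference was 0.22 at day 5 (limma adjusted p 0.708, not called), 0.40 at day 9 (SE 0.09, adjusted p 0.0155) and 0.36 at day 12 (adjusted p 0.0246). Both calls were lost with the second measurements of replicate a (adjusted p 0.0605 and 0.0919) and with median centring (0.70 with adjusted p 0.313, and 0.29 with adjusted p 0.9997), and the day 12 call also without the detection filter (0.0526). The day 9 call was lost without KD replicate a or c (adjusted p 0.0687 and 0.0814), and the day 12 call without any of the day 12 arrays except control replicate a (adjusted p 0.0590 to 0.147). Without the low-signal array both were called (0.42, adjusted p 0.00719, and 0.37, adjusted p 0.00522).

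Idh2, the mitochondrial NADP-linked form, went the other way in value. It stood at 9.60, 8.30 and 9.36 in the day 9 controls, where the low-signal array gave 8.30, and at 8.70, 8.78 and 8.52 after depletion. At day 12 it stood at 9.08, 9.24 and 9.12 against 8.75, 8.72 and 8.67. The differences were -0.42 and -0.43 (limma adjusted p 0.298 and 0.370), and without the low-signal array -0.83 (adjusted p 0.000249) and -0.44 (adjusted p 0.0118). Idh3a, the catalytic subunit of the NAD-linked enzyme of the cycle, differed by 0.08, -0.12 and 0.03. Without the low-signal array its day 9 difference was 0.11 and not called. The other 11 enzymes of the citrate cycle group were not called at any day, with differences of -0.32 to 0.36. Among them Sdhd (a membrane subunit of succinate dehydrogenase, named after its values were seen) was called lower at day 12 without the low-signal array (-0.30, adjusted p 0.0386).

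**Figure D2:**
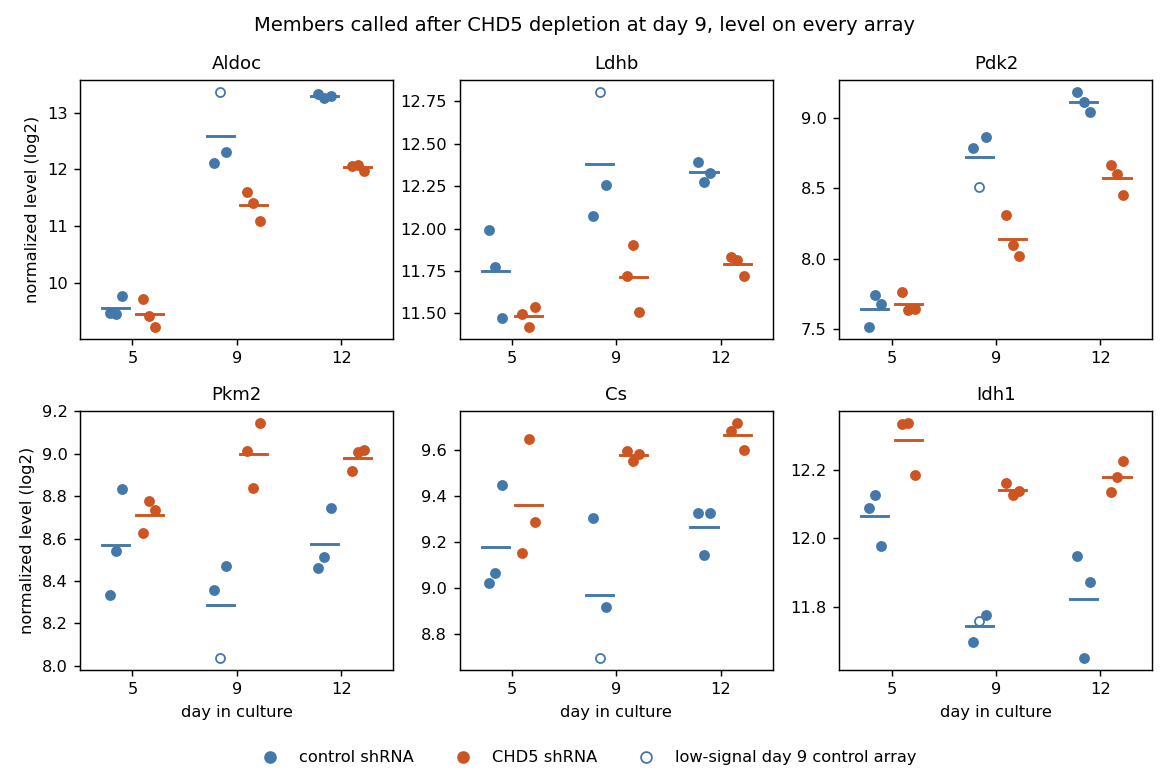
Normalized level (log2, y axis) of the 6 enzymes called at day 9 on each of the 18 arrays, by day in culture (x axis), with control shRNA in blue and CHD5 shRNA in orange and a line at each group mean. The open circle is the low-signal array, which holds the highest Aldoc and Ldhb and the lowest Pkm2 and Cs level of the day 9 controls.

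Counting groups that did not overlap, 4 enzymes were separate at day 5, 15 at day 9 and 20 at day 12 with all arrays, where 11%, 20.6% and 38.2% of all probes were. With 3 against 3 arrays the exact permutation p cannot go below 0.1. Of the 36 enzymes, 10 lay above 0 and 10 below 0 at all 3 days, and 16 had mixed signs.

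Whether the effect of depletion grew between days 5 and 12 was tested as the change of the difference. With all arrays 0 enzymes were called, where 0.153% of all probes were, and 3 had an unadjusted p under 0.05, where 6.75% of all probes did. The smallest limma adjusted p was that of Pfkp, 0.0853 for a change of -0.84. Aldoc changed by -1.15 (adjusted p 0.203) and Pdk2 by -0.58 (adjusted p 0.169). Without the low-signal array these 3 enzymes were called, where 2.36% of all probes were, with -0.86 for Pfkp (adjusted p 0.0135), -1.17 for Aldoc (adjusted p 0.00228) and -0.59 for Pdk2 (adjusted p 0.0179).

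Isoforms were compared within each array, as the log2 level of a gene minus that of its partner, which does not depend on how arrays are centred but does depend on how their spread is scaled. Since each probe has its own brightness, the value 0 has no meaning and only the difference between groups is read. The pair Hk2 and Hk1 was planned and could not be formed, which left 7 pairs at 3 days, or 21 comparisons. Between the glial Aldoc and the neuronal Eno2, the value was -1.58, -1.05 and -0.72 in the day 5 controls and -1.08, -1.14 and -1.21 after depletion. It was 1.45, 3.36 and 1.63 against 0.87, 0.70 and 0.27 at day 9, and 2.47, 2.58 and 2.40 against 0.96, 1.09 and 1.05 at day 12. The groups overlapped at day 5 and were apart at days 9 and 12.

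The difference for Aldoc and Eno2 was -0.03 (SE 0.25), -1.53 (SE 0.63) and -1.45 (SE 0.06) at days 5, 9 and 12, and -0.95 at day 9 without the low-signal array. The exact permutation p, two-sided, was 0.9, 0.1 and 0.1, and 0.191 after Benjamini-Hochberg adjustment over the 21 comparisons for the last 2. For Aldoc and Aldoa it was 0.02, -1.32 and -1.13 (day 9 without the low-signal array -1.02). For Ldhb and Ldha it was -0.03, -0.91 and -0.61 (day 9 without that array -0.78). Pdk1 relative to Pdk2 was higher by 0.51 at day 9 and 0.40 at day 12, and by 0.23 at day 9 without that array. Pfkl relative to Pfkm was higher by 0.41 and 0.40 on those days. Pfkp relative to Pfkm was higher by 0.55 at day 5, when the groups were apart, and differed by 0.02 and -0.12 later. Eno2 relative to Eno1 overlapped on every day (0.07, 0.27 and 0.07). In all, 11 of the 21 comparisons had separate groups, each with the smallest exact p of 0.1, and 0 passed the adjustment.

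**Figure D3:**
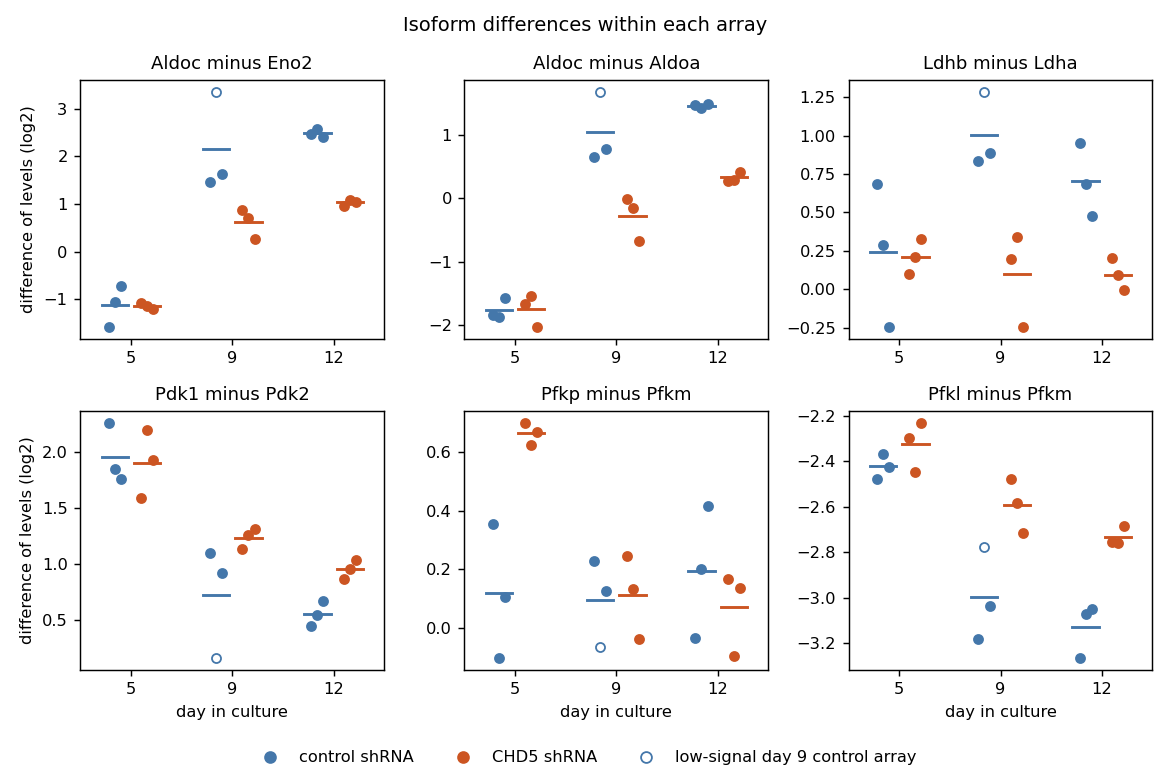
Difference of log2 levels between 2 isoforms on the same array (y axis) by day in culture (x axis), for 6 pairs, with control shRNA in blue, CHD5 shRNA in orange and a line at each group mean. The level of 0 carries no meaning, and the reader should see Aldoc minus Eno2 lie higher at days 9 and 12 than at day 5 in both arms, and lower on all depleted arrays at days 9 and 12.

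The same enzymes were followed over the culture in each arm. In the controls 10 of 36 were called between days 5 and 9 (9 higher), where 22% of all probes were (9.18% higher). Between days 9 and 12, 3 were called (all higher), where 4.16% were (2.95% higher), and between days 5 and 12, 12 were (11 higher), where 23.6% were (11.1% higher). After depletion the counts were 5 (all higher), 0 and 12 (11 higher), where 9.33% (4.61% higher), 1.37% and 17% (8.46% higher) of all probes were called. The lower call between days 5 and 12 in each arm was Hk2, which was detected on no day 12 array. Between days 9 and 12, 4 enzymes had an unadjusted p under 0.05 after depletion, where 9.82% of all probes did. Between days 5 and 12 the median change over the 36 enzymes was 0.18 in the controls and 0.29 after depletion, beside -0.02 and -0.01 over all probes. The difference between the changes of the arms is the test given above.

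When the low-signal array was left out, 10, 4 and 18 enzymes were called in the controls, where 20.7%, 6.23% and 38.4% of all probes were. After depletion 16, 2 and 21 were called, where 25.4%, 4.91% and 31.6% were. From day 5 to day 12 the calls were 16 higher of 18 in the controls and 19 higher of 21 after depletion. Other single arrays moved the counts as well. In the controls the count between days 5 and 9 was 16 without day 9 replicate a. Between days 9 and 12 it was 11 without day 9 replicate a, 1 without day 12 replicate b and 0 without day 12 replicate a or c. After depletion the count between days 5 and 9 was 2 without day 5 replicate b and 3 without day 9 replicate a or c, and that between days 5 and 12 was 5 without day 5 replicate b or day 12 replicate c and 7 without day 5 replicate c or day 12 replicate b.

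Glycolysis held most of the calls from day 5 to day 12, with 8 of 15 enzymes called in each arm, 7 of them higher. The lower call in each arm was Hk2. Its probe passed the detection filter only through the day 5 arrays and 1 day 9 control array, so that call is not read as a result about glycolysis. In the controls Aldoc rose by 3.73 (SE 0.23, limma adjusted p 1.07e-09), 13.3 times the day 5 level, and after depletion by 2.58 (adjusted p 2.47e-07), 5.99 times. Pfkp rose by 1.04 in the controls (adjusted p 1.25e-05) and its change after depletion was 0.20 (adjusted p 0.349). Pfkm rose by 0.96 and 0.80 (adjusted p 9.08e-07 and 1.69e-05). Aldoa rose by 0.51 in both arms (adjusted p 0.00185 and 0.00279), and Gapdh by 0.57 and 0.77 (adjusted p 0.0314 and 0.00731). Another Gapdh probe was called too (0.36 and 0.30, adjusted p 0.00750 and 0.0302) and the remaining one, detected on 5 arrays, was not (0.07 and 0.15). Ldhb rose by 0.58 in the controls (adjusted p 0.0112) and changed by 0.31 after depletion (adjusted p 0.216). Ldha changed by 0.12 in the controls (adjusted p 0.527) and rose by 0.42 after depletion (adjusted p 0.0226). Without the low-signal array Ldhb was called after depletion too (0.31, adjusted p 0.0435). The Ldha call was lost with median centring, without the detection filter and with the second measurements (adjusted p 0.607, 0.0826 and 0.0631). It was also lost without day 5 replicate b or c or day 12 replicate b or c (0.0780 to 0.0846). The change of the depletion effect was not called for either enzyme. Hk2 was called lower at day 12 in both arms (adjusted p 0.0330 and 0.0202), where it was not well above background, so the change is a bound. Its day 5 level was at least 1.12-fold higher than its day 12 level in the controls and at least 1.05-fold higher after depletion. These bounds set the day 5 mean against the higher, on each day 12 array, of the lowest detected signal and the probe's own. The call in the controls was lost with median centring (adjusted p 0.446), with detection required on all 3 arrays of a group (0.0760) and without day 5 replicate b (0.188), day 12 replicate a (0.124) or day 12 replicate c (0.0795). That after depletion was lost with median centring (0.430), with the second measurements (0.0899) and without day 5 replicate a or b or day 12 replicate a or c (0.0548 to 0.0998). Eno2 changed by 0.13 and 0.41 and Eno1 by 0.11 and 0.39, and neither was called with the normalization used here and all arrays. Without the low-signal array both were called higher after depletion (Eno2 0.42, limma adjusted p 0.0142, Eno1 0.40, adjusted p 0.0204) and neither in the controls. With quantile normalization both were called after depletion too (adjusted p 0.0141 and 0.0494).

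At pyruvate entry, Pdk2 rose by 1.47 in the controls (SE 0.11, limma adjusted p 1.26e-08) and by 0.89 after depletion (adjusted p 1.36e-05), while Pdk1 changed by 0.07 and -0.06. Pcx was the other member of this group called in the controls (0.63, adjusted p 0.00944). In the citrate cycle 2 of 15 enzymes were called in the controls and 3 after depletion, all higher. Sdhc, a subunit of succinate dehydrogenase, was called in both arms (0.59 and 0.66), Sdhd in the controls (0.48) and Sdha and Mdh2 after depletion (0.40 and 0.39). Cs changed by 0.09 and 0.30 and Idh3a by 0.20 and 0.15, and these were not called. Apart from Hk2, the lowest changes in the controls were those of Idh1 (-0.24) and Aco1, the cytosolic aconitase (-0.19). After depletion they were those of Idh2 (-0.39) and Dld (-0.27). With the normalization used here and all arrays these were not called. Without the low-signal array Idh1 was called lower in the controls (-0.25, limma adjusted p 0.0249) and Idh2 after depletion (-0.40, adjusted p 0.0105). Idh1 was also called lower in the controls with quantile normalization (adjusted p 0.0208). Between the same days 12 of 12 astrocyte markers were called higher in the controls and 11 of 12 after depletion, and their part in these changes was not tested.

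**Figure D4:**
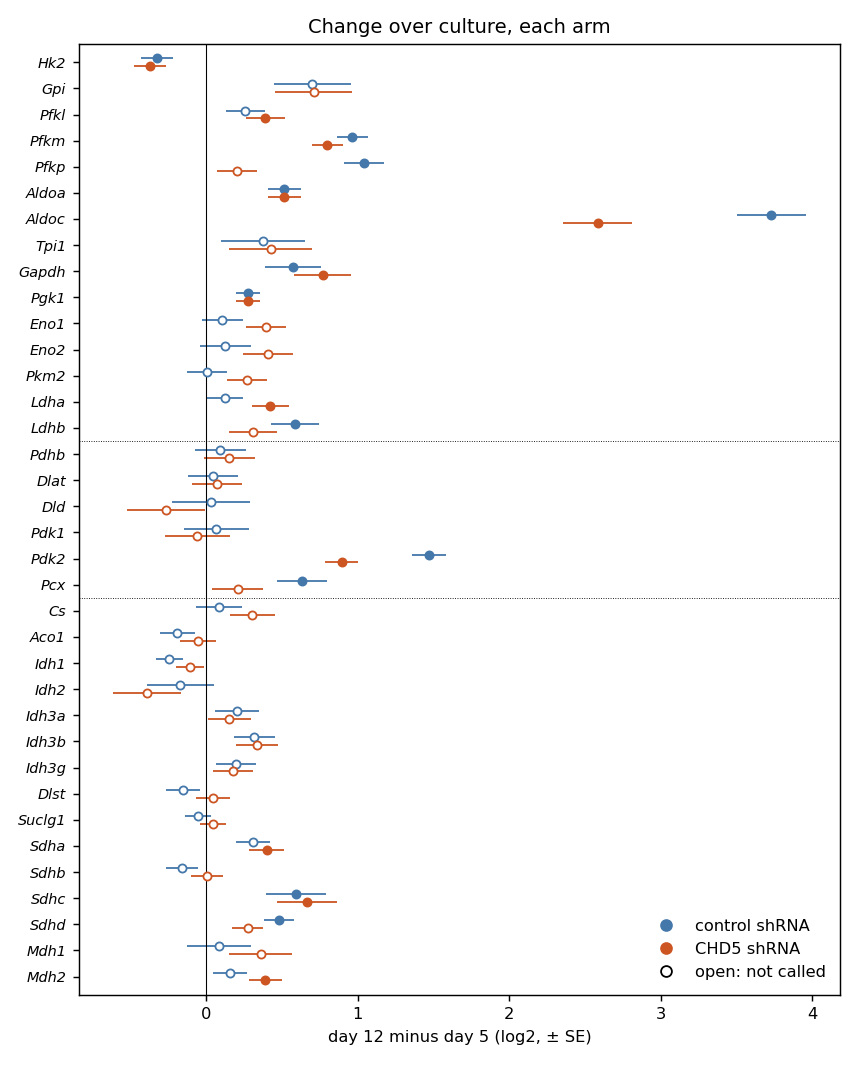
Change from day 5 to day 12 (log2, x axis, bars ± SE of the limma fit, 3 against 3 arrays) of each of the 36 enzymes in control cultures (blue) and CHD5-depleted cultures (orange). Filled points are the 12 enzymes called in each arm, with Aldoc at 3.73 and 2.58 and Pdk2 at 1.47 and 0.89. Hk2 was not well above background at day 12.

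Neighbouring pathways were read from lists of related genes. Of 14 further genes of glycolysis and its control that were tested, 1 was called after depletion at day 9 and 2 at day 12, where 5.89% and 5.47% of all probes were. With the low-signal array left out, 1 was called higher at day 5, 1 higher at day 9, and 1 higher and 3 lower at day 12. Over all probes 1.46%, 10.6% and 13% were called on those days without that array. With all arrays Pdp2, a phosphatase that reactivates pyruvate dehydrogenase and so opposes the kinases, was higher at days 9 and 12 (0.98, limma adjusted p 0.00267, and 0.65, adjusted p 0.0255). Pygm, a glycogen phosphorylase, was lower at day 12 (-0.62, adjusted p 0.00102). Of 12 further genes of the citrate cycle and its filling reactions, 0 were called by limma at days 5, 9 and 12, and 0, 4 and 0 had an unadjusted p under 0.05, where 5.66%, 20.2% and 16% of all probes did. When the low-signal array was left out, 1 of these 12 was called lower at day 9 and 1 at day 12, where 10.6% and 13% of all probes were called. Of 5 genes of the pentose phosphate route, Pgd (0.39, adjusted p 0.0132) and Rpia (0.50, adjusted p 0.0199) were higher at day 9 and Pgd (0.32, adjusted p 0.0329) at day 12. Of 4 transporters of glucose, lactate and pyruvate, Slc16a3, a lactate exporter, was higher at day 12 (0.47, adjusted p 0.00442).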

How the data were processed

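The authors deposited the mean bead signal intensity of each probe, read with GenomeStudio 1.1.1 per the submitters' processing notes, with neither normalization nor subtraction of background according to the headers of the deposited files, and a detection p-value for each probe and array. The 6 replicate a samples were measured a second time (mean signal 423.1 to 613.4, correlation with the first 0.9969 to 0.998), and the first measurement was used. A Z-score transformation was then applied to log2 signals of each array over the 11079 of 22523 probes with a detection p of at most 0.02 on at least 1 of 18 arrays, and values were put back on the mean spread. Differences were tested in limma 3.58.1 (R 4.3.3) in 1 fit of 6 groups of 3 arrays (12 residual df), with Benjamini-Hochberg adjustment within each comparison and a limit of 0.05. The number of arrays limits the precision. The scripts were tested on simulated data.

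Named with values were the enzymes called after depletion, the isoform pairs, Gapdh, the irreversible steps, and the 3 largest rises and falls from day 5 to 12 in each arm, 20 enzymes in all. The result of 1 further marker list is not reported here. The members and lists were chosen with earlier results of these data known. Promoters were taken by gene number from RefSeq sequence of the GRCr8 build. Alternatives were quantile, median and neqc normalization, other detection filters, array weights, the second measurements, a replicate block, only the arrays of a comparison, a Z-ratio limit of 1.5 and leaving out arrays.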

Additional observations from a re-analysis of the deposited data

Results flagged for a closer look

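In 2 enzymes the depleted arrays all lay on one side of the controls at day 5 and all on the other side at day 12. Over all probes, 11% had separate groups at day 5 and 38.2% at day 12. The share of all probes with such a reversal was not counted, so the 2 cannot be set against it. Pfkp differed by 0.41 at day 5 and by -0.43 at day 12, and the change of the difference was -0.84 (limma adjusted p 0.0853, and -0.86 with adjusted p 0.0135 without the low-signal array). Mdh1, the cytosolic malate dehydrogenase, differed by -0.20 at day 5 and by 0.073 at day 12, and the change was 0.28 (adjusted p 0.999). Neither change was called with all arrays.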

How the results depend on the processing

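Of 1000 alternative values for the differences of the 20 named enzymes after depletion, 929 kept their sign and side of the limit or were uncalled in both settings, 33 lost and 38 gained a call, and 0 called differences reversed. The counts of enzymes called moved more. With array weights they were 2, 13 and 11 at days 5, 9 and 12, 16, 12 and 22 in the controls (days 5 to 9, 9 to 12 and 5 to 12), 17, 6 and 23 after depletion, and 4 for the change of the effect from day 5 to 12. With median centring they were 1 at day 9, 1 at day 12, 3, 1 and 5 in the controls, and 1 (days 5 to 9) and 3 (days 5 to 12) after depletion. With only the arrays of a comparison they were 0 at day 9, 11 at day 12, 2 (days 5 to 9) and 0 (days 9 to 12) in the controls, 18, 6 and 22 after depletion, and 3 for the change. With quantile normalization they were 6 at day 12, 12 and 1 (days 5 to 9 and 9 to 12) after depletion, and 2 for the change. With neqc they were 5, 10, 1 and 1. Detection on all 3 arrays of a group gave 5 at day 12 and 1 after depletion between days 9 and 12. The second measurements gave 1 for the change. A Z-ratio beyond 1.5 left 6 (days 5 to 9) and 4 (days 5 to 12) in the controls and 5 (days 5 to 12) after depletion. Leaving out the low-signal array, chosen as an alternative after the data were seen, as were array weights, gave 11 at day 12, 16, 2 and 21 after depletion, and 3 for the change. Leaving out single replicates gave 0 to 10 at day 9, 2 to 3 at day 12, 8 to 16, 0 to 11 and 9 to 12 in the controls, 2 to 5 and 5 to 11 (days 5 to 9 and 5 to 12) after depletion, and 0 in the other comparisons. The replicate block gave 0, 6 and 6 at days 5, 9 and 12, adding Pfkp (adjusted p 0.0250), Pkm2 (0.0410) and Ldhb (0.0307) at day 12, and 1 for the change. Deviations of arrays with the same letter correlated by 0.17 to 0.38 at day 5. The range was -0.2 to 0.43 at day 9 and 0.014 to 0.15 at day 12. These values do not settle whether the letters paired the samples. At day 5, 0 enzymes were called with and without the block. Among the isoform pairs, Ldhb against Ldha at day 12 was -0.42 with the second measurements, and Pfkl against Pfkm at day 9 was 0.20 with median centring and 0.63 with neqc. The causes were not tested. Signal over background limits the weakest probes, such as those of Pdk4 and Hk2.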
